A study of Mus musculus with 12 samples.

Results

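Interleukins and their receptors were described in CD8+ T cells sorted from irradiated and untreated mouse tumours. The members are all probes of the deposited table whose name begins with Il and a digit, and there were 41 of them among 773 probes. They comprise 22 probes for secreted interleukins, 17 for receptor chains, and 2 for proteins that blunt interleukin-1, the receptor antagonist Il1rn and the decoy receptor Il1r2. Shared chains whose symbols begin otherwise, and interleukins without a probe of that name, were not analysed here.

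The cells came from tumours of MC38, a mouse colon carcinoma line, in C57BL/6J mice. The groups were SRT, CRT and SRT-like, which are 3 modes of radiotherapy, and Nontreated, which received none, with 3 samples each. Treatment of 20 Gy was started at tumour sizes of 40 to 100 mm3, and cells were enriched on CD45 and sorted for CD8 before lysis. The labels give no meaning for the 3 abbreviations and do not say whether each sample came from its own mouse. The p-values below therefore rest on the sample-to-sample spread alone, and that spread may be technical.

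Interleukins are secreted proteins by which immune cells instruct each other, and a cell responds only where it carries the matching receptor chains. Most receptors of the common gamma chain, gp130, IL-10 and IL-12 families pass their signal through JAK kinases to STAT transcription factors, while receptors of the IL-1 family signal through MyD88 and IRAK kinases. In CD8+ T cells, IL-2, IL-7, IL-15 and IL-21 sustain growth and survival, IL-12 favours effector function, and IL-10 has been found both to restrain and to sustain these cells, depending on the setting.

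Transcripts were counted with NanoString nCounter barcoded probes, and values are given on the deposited log2 scale, on which 1 unit is a doubling. The molecule counts behind these values totalled 118694 to 467904 per sample, with the lowest total in Nontreated replicate 3. Background was taken in each sample from 26 probes for genes of other tissues or a virus, and a member was above background where it exceeded their mean plus 2 SD. This threshold lay between 3.54 in Nontreated replicate 1 and 4.87 in Nontreated replicate 3, so the faintest members were hardest to see in the shallowest sample. All 5 CD8 T cell probes on the panel, Cd3d, Cd3e, Cd3g, Cd8a and Cd8b1, were above background in 12 of 12 samples. Probes for other cells gave a mixed picture. Cd4, Cd14, Csf1r and Ms4a1, which mark helper T cells, monocytes and B cells, exceeded background in 0 of 12 samples. Of the 4 B cell probes, however, Ighm was above it in 12 and Cd79b in 8, and of the 5 macrophage and monocyte probes, Cd68 and Tyrobp were above it in 12 and Fcgr1 in 8. Foxp3 and Cd40lg, genes of CD4+ T cells that activated CD8+ T cells can also express, were above it in 9 each. Of the 3 probes listed for natural killer cells, Klrk1 and Eomes were above it in 12 and Ncr1 in 6. Of the 2 listed for tumour and stroma, Cdh1 was above it in 11 and Pdgfrb in 0. Which cells these signals came from was not tested.

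A larger share of the receptors than of the secreted interleukins was detected. Counted as measured where every sample of at least 1 group was above background, 10 of 17 receptor probes (58.8%) and 5 of 22 interleukin probes (22.7%) were measured. Together with the decoy Il1r2 this gave 16 of 41 members (39.0%), beside 490 of all 773 probes (63.4%). The receptor probes took 1.26% to 1.73% of the molecules counted in a sample, and the interleukin probes 0.239% to 0.341%. Between 13 members in Nontreated replicate 3 and 21 in Nontreated replicate 1 were above background in a single sample. In all 12 samples this held for 7 receptor probes (Il2ra, Il21r, Il7r, Il10ra, Il10rb, Il12rb1 and Il27ra), for the decoy Il1r2, and for 1 interleukin, Il16. By family, 5 of 10 common gamma chain members, 3 of 6 gp130 members, 3 of 10 IL-1 members, 2 of 4 IL-10 members and 1 of 3 IL-12 and IL-23 members were measured.

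**Figure D1:**
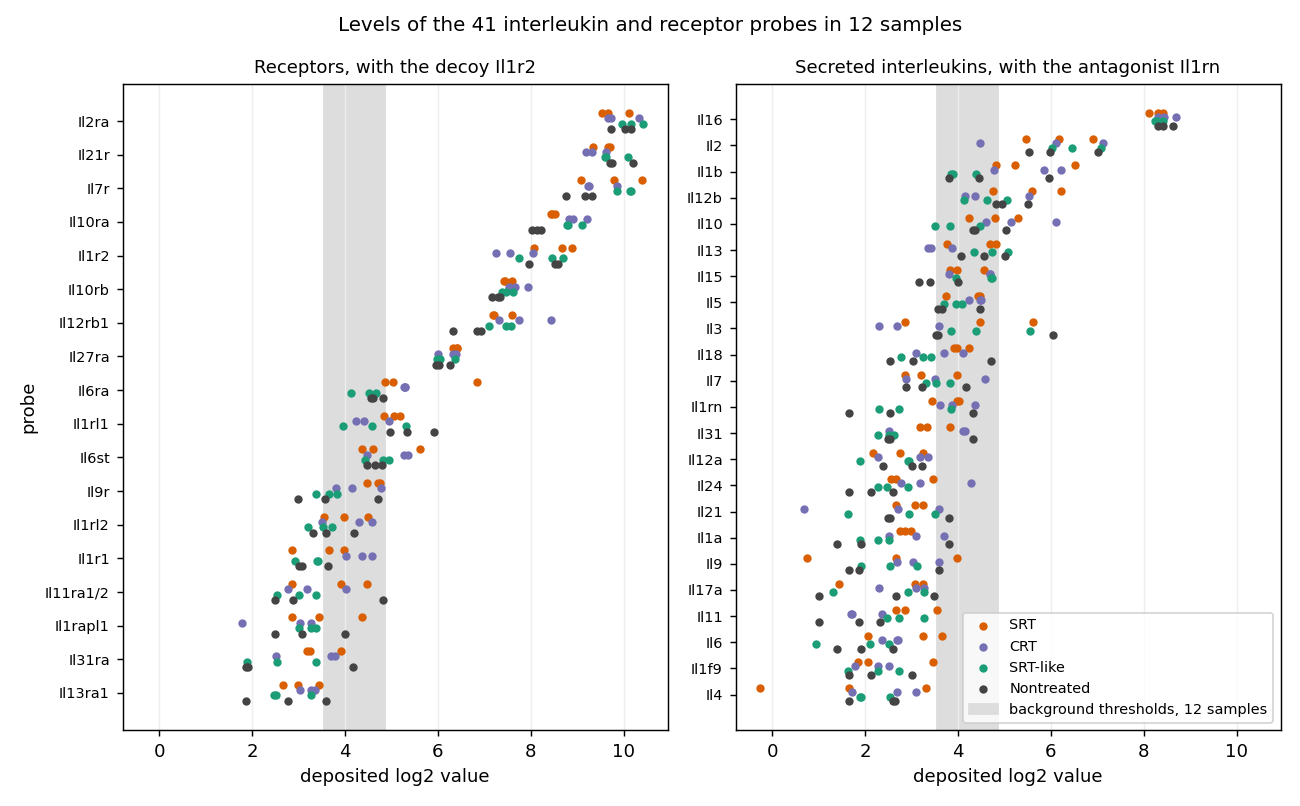
Each point is the deposited log2 value (x axis) of 1 member (y axis) in 1 of 12 samples, coloured by group, with receptors and the decoy Il1r2 on the left and interleukins and the antagonist Il1rn on the right; the grey band spans the background thresholds, 3.54 to 4.87. Of the 22 interleukins, Il16 alone lies right of the band in all 12 samples, while 7 of 17 receptors do.

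Il10ra, the ligand-binding chain of the IL-10 receptor, was the one member past the threshold in any comparison. Its level was 8.46, 8.43 and 8.51 in SRT, 8.82, 9.21 and 8.90 in CRT, 8.80, 8.79 and 9.11 in SRT-like, and 8.12, 8.22 and 8.03 in Nontreated, from 130 to 724 molecules per sample. Every irradiated sample lay above every Nontreated sample, and SRT lay between the Nontreated samples and those of CRT and SRT-like without overlap. In bulk samples of this kind, more cells that express a gene and more RNA per cell cannot be told apart.

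Il10ra rose in CRT by 0.85 ± 0.16 (SE; 95% interval 0.49 to 1.21), a 1.80-fold higher level, with an adjusted p of 0.0197 in limma over all 773 probes. It was 1 of 41 members called in CRT, where 3.1% of all probes were called. Over the 3 modes together it rose by 0.66 ± 0.13, or 1.58-fold, with a limma adjusted p of 0.032, again 1 of 41 members beside 3.1% of all probes. In SRT-like the difference was 0.78 ± 0.16 with a limma adjusted p of 0.0846, and in SRT it was 0.35 ± 0.16 with 0.459. Neither mode had a called member, 0 of 41 each, beside 0.647% of all probes in SRT-like and 0.0% in SRT. All these comparisons share the same Nontreated samples. Macrophages also express Il10ra, and the summed linear level of 5 macrophage and monocyte probes was 172 to 199 in the SRT samples, 199 to 299 in CRT, 116 to 168 in SRT-like and 133 to 219 in Nontreated. Within that list, the macrophage gene Cd68 was at 5.93, 5.69 and 5.98 in SRT, 6.34, 6.42 and 6.45 in CRT, 6.10, 6.03 and 5.99 in SRT-like, and 5.41, 5.95 and 5.91 in Nontreated. Its group means had the same order as those of Il10ra, and its CRT samples lay wholly above Nontreated, by 0.65 with a limma adjusted p of 0.0949. Tyrobp, the other probe of that list above background in every sample, followed Il10ra only in part. Its CRT mean exceeded that of Nontreated by 0.62, with overlap and a limma adjusted p of 0.494. Its SRT-like samples lay wholly below Nontreated, with a difference of -0.76 and a limma adjusted p of 0.553. For CRT all 5 probes of the list had positive differences, with a median of 0.65. That median was 0.26 over all probes and 0.68 over the 26 background probes. For SRT-like 3 of the 5 were positive and 2 negative. The part of macrophages in the result was not tested.

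The call in CRT depended on scaling and on single samples. The median difference of all 773 probes from Nontreated was itself 0.22 for SRT, 0.26 for CRT, 0.15 for SRT-like and 0.22 for the 3 modes together. Relative to it, Il10ra stood 0.12, 0.59, 0.62 and 0.44 higher, in the same order. With each sample centred on its median, the CRT difference was 0.53 with a limma adjusted p of 0.249. It was 0.73 with 0.108 without CRT replicate 2, 0.89 with 0.062 without CRT replicate 3, and 0.85 with 0.0735 without Nontreated replicate 1 (limma adjusted p). In the 3 modes together, the limma adjusted p was 0.0647 without CRT replicate 2, 0.0515 without SRT-like replicate 2 and 0.0503 without SRT-like replicate 3. It was 0.135 without Nontreated replicate 1 and 0.0774 without Nontreated replicate 2. The difference stayed above 0 under every setting tried.

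**Figure D2:**
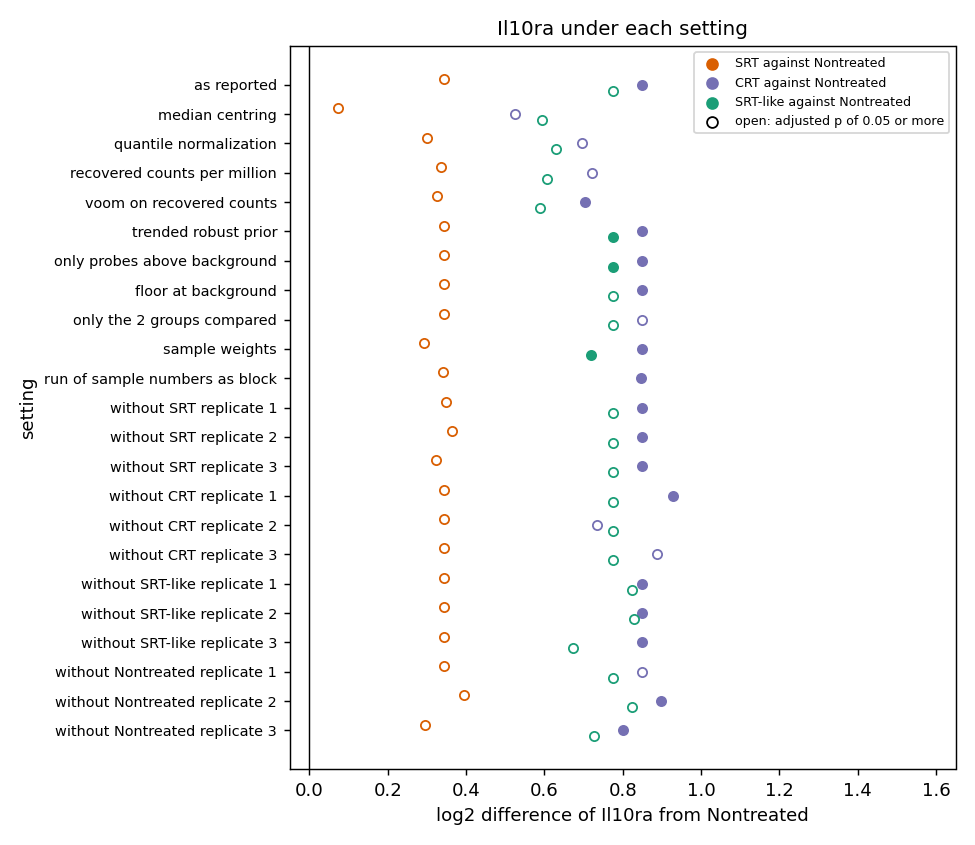
Log2 difference of Il10ra from Nontreated (x axis) in SRT, CRT and SRT-like under each setting (y axis), filled where the limma adjusted p was under 0.05 and open otherwise. All points lie above 0, and the CRT points run between 0.53 with median centring and 0.93 without CRT replicate 1.

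Il10rb, the second chain of the IL-10 receptor, which receptors for IL-22 and the lambda interferons also use, was at 7.45, 7.59 and 7.42 in SRT, 7.53, 7.94 and 7.66 in CRT, 7.61, 7.38 and 7.46 in SRT-like, and 7.34, 7.28 and 7.17 in Nontreated. As for Il10ra, all 9 irradiated samples lay above the 3 Nontreated samples, here by a narrow margin. For SRT its difference equalled the median difference of all probes, and for SRT-like it stood 0.07 above that median. For CRT it stood 0.18 above, and for the 3 modes together 0.08. The difference in CRT was 0.44 ± 0.16 with a limma adjusted p of 0.20, and it did not pass the threshold in any mode. Il10 itself, the cytokine that this receptor binds, was above background in 2 samples of SRT, 2 of CRT, 1 of SRT-like and 2 of Nontreated, and so was not measured in any group as a whole.

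Il12rb1, the chain shared by the receptors for IL-12 and IL-23, was at 7.19, 7.21 and 7.59 in SRT, 7.32, 7.76 and 8.44 in CRT, 7.11, 7.47 and 7.58 in SRT-like, and 6.32, 6.84 and 6.94 in Nontreated. Again no irradiated sample reached down to the Nontreated samples. The difference was 1.14 ± 0.29 in CRT, or 2.20-fold, with a limma adjusted p of 0.071, so it did not pass. In the 3 modes together it was 0.82 ± 0.24 with a limma adjusted p of 0.123. Without CRT replicate 1 the CRT difference was 1.40 and the limma adjusted p 0.0462, and without Nontreated replicate 3 they were 1.26 and 0.0428. Of 22 alternative settings, Il12rb1 in CRT passed in 7 and did not in 15. Over these settings the difference ran from 0.82 to 1.40, and the limma adjusted p from 0.0115 to 0.261. Of the cytokine subunits, Il12a was above background in 0 samples, and Il12b in 2 of SRT, 1 of CRT, 2 of SRT-like and 2 of Nontreated.

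**Figure D3:**
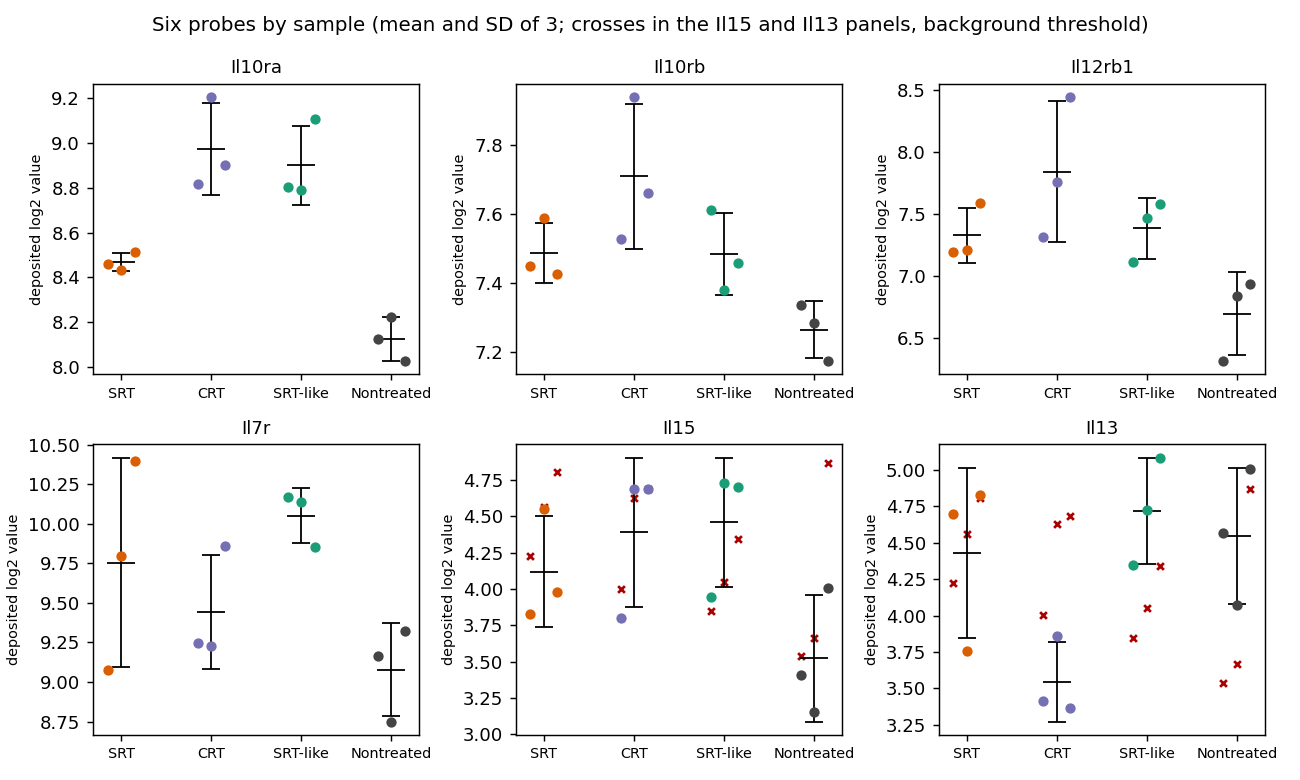
Deposited log2 values (y axis) of Il10ra, Il10rb, Il12rb1, Il7r, Il15 and Il13 in every sample of SRT, CRT, SRT-like and Nontreated, with the mean and SD of 3 samples; red crosses in the Il15 and Il13 panels are each sample's background threshold. For Il10ra, Il10rb and Il12rb1 all 9 irradiated samples sit above all 3 Nontreated samples, while Il15 and Il13 scatter around the threshold.

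Il7r, the alpha chain for IL-7 and for thymic stromal lymphopoietin, which marks naive and memory T cells, was at 9.07, 9.79 and 10.40 in SRT, 9.24, 9.23 and 9.86 in CRT, 10.17, 10.14 and 9.85 in SRT-like, and 9.16, 8.75 and 9.32 in Nontreated. The 3 SRT-like samples were all above Nontreated, whereas SRT and CRT each overlapped it. The difference was 0.97 ± 0.32 in SRT-like, or 1.96-fold, with a limma adjusted p of 0.260. In SRT it was 0.68 ± 0.32 with a limma adjusted p of 0.452, and its replicates spanned more than those of any other group. Il7, the cytokine, was above background in 0 of 12 samples.

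Il2ra, the chain that gives the IL-2 receptor high affinity and appears on activated T cells, was at 9.53, 9.66 and 10.11 in SRT, 9.66, 9.72 and 10.33 in CRT, 9.95, 10.41 and 10.16 in SRT-like, and 9.73, 10.15 and 10.04 in Nontreated. The groups overlapped throughout. Il21r, the receptor for IL-21, was at 9.34, 9.65 and 9.70 in SRT, 9.32, 9.20 and 9.61 in CRT, 9.60, 10.10 and 9.61 in SRT-like, and 9.70, 9.74 and 10.20 in Nontreated. All CRT samples lay below the lowest Nontreated sample, as did all SRT samples by a margin smaller than the rounding, and neither difference passed the test. Il2ra and Il21r stood at 98.0 and 79.2 times the mean background probe of their own samples, Il7r at 75.7 and Il10ra at 38.8 times. Probes differ in how well they capture their target, so these ratios say how clear each signal was and do not rank the genes.

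Among the remaining receptor chains, those of the gp130 family were fainter. Il27ra, which pairs with gp130 to bind IL-27, was at 6.41, 6.41 and 6.33 in SRT, 6.00, 6.33 and 6.39 in CRT, 6.05, 6.38 and 5.97 in SRT-like, and 6.03, 5.95 and 6.25 in Nontreated. The SRT samples lay above the Nontreated samples, and the others overlapped them. Il6ra, the IL-6-binding chain, was at 5.03, 4.85 and 6.85 in SRT, 5.30, 5.28 and 5.30 in CRT, 4.51, 4.67 and 4.12 in SRT-like, and 4.61, 4.56 and 4.81 in Nontreated. SRT and CRT lay above Nontreated and SRT-like did not. The SRT difference of 0.92 ± 0.43 had a limma adjusted p of 0.451, and without SRT replicate 3 it was 0.28. Il6st, gp130 itself, was at 4.38 to 5.61 in SRT, 4.47 to 5.36 in CRT, 4.43 to 4.95 in SRT-like and 4.46 to 4.80 in Nontreated, in overlapping groups. Il6ra and Il6st were above background in 10 of 12 samples each. For Il6ra these were 3 SRT, 3 CRT, 2 SRT-like and 2 Nontreated samples. It thus counted as measured through SRT and CRT, where it was highest. With Nontreated at or near background, its SRT difference is not a measured fold.

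Of the receptors of the IL-1 family, the chain Il1rl1 and the decoy Il1r2 were measured. Il1rl1, known as ST2, binds IL-33 and was at 4.83, 5.17 and 5.05 in SRT, 4.41, 4.94 and 4.24 in CRT, 4.59, 5.31 and 3.95 in SRT-like, and 4.96, 5.92 and 5.33 in Nontreated. The CRT samples were all below Nontreated, and the other 2 modes overlapped it. Il1rl1 was above background in 3 SRT, 2 CRT, 2 SRT-like and 3 Nontreated samples, so its low groups lay partly at background. The difference in the 3 modes together was -0.68 ± 0.29 with a limma adjusted p of 0.295. Il1r2, which captures IL-1 without signalling, was at 8.89, 8.07 and 8.67 in SRT, 8.05, 7.26 and 7.56 in CRT, 8.70, 8.46 and 7.74 in SRT-like, and 8.52, 8.60 and 7.97 in Nontreated. It was lowest on average in CRT, whose highest sample still overlapped Nontreated. Between modes, all SRT samples lay above all CRT samples, with a difference of 0.92 ± 0.32 and a limma adjusted p of 0.564.

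The interleukin with the clearest signal was Il16, made as a precursor in lymphocytes and known as an attractant of CD4+ cells, at 8.10 to 8.41 in SRT, 8.30 to 8.68 in CRT, 8.24 to 8.41 in SRT-like and 8.31 to 8.63 in Nontreated. Il2, the T cell growth factor, was at 6.90, 5.47 and 6.18 in SRT, 7.12, 6.12 and 4.48 in CRT, 6.03, 7.09 and 6.46 in SRT-like, and 5.53, 5.99 and 7.00 in Nontreated. For both cytokines the groups overlapped, and Il2 varied widely within each group. It was above background in 11 of 12 samples.

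Il13 and Il15 were measured through 1 or 2 groups only and lay near background. Il13, a type 2 cytokine, was at 4.70, 3.76 and 4.83 in SRT, 3.41, 3.86 and 3.36 in CRT, 4.35, 4.73 and 5.08 in SRT-like, and 4.57, 4.07 and 5.00 in Nontreated, from 6 to 38 molecules per sample. It was above background in 2 SRT, 0 CRT, 3 SRT-like and 3 Nontreated samples. The CRT samples were thus all below Nontreated and also all at background, so the difference of -1.0 ± 0.34 (limma adjusted p 0.171) is not a measured fold. With quantile normalization it was -1.43, with a limma adjusted p of 0.0289. In the other 21 of 22 alternative settings it did not pass. Over all settings the difference ran from -1.43 to -0.11, and the limma adjusted p reached 0.825. Il15, a cytokine of memory CD8+ T cells and natural killer cells that is mostly presented by other cells, was at 3.83, 4.55 and 3.98 in SRT, 3.80, 4.69 and 4.68 in CRT, 3.95, 4.73 and 4.71 in SRT-like, and 3.41, 3.16 and 4.00 in Nontreated. It was above background in 0 SRT, 1 CRT, 3 SRT-like and 0 Nontreated samples, and each mode overlapped Nontreated. The Il15 difference in the 3 modes together was 0.80 ± 0.28 with a limma adjusted p of 0.198, on 8 to 28 molecules per sample. Since Nontreated was at background and Il15 counted as measured through SRT-like alone, where it was highest, this is not a measured fold either.

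Il1b, the inflammatory cytokine made mainly by myeloid cells, was at 5.23, 6.52 and 4.83 in SRT, 5.84, 6.21 and 4.78 in CRT, 3.89, 4.38 and 3.86 in SRT-like, and 5.96, 4.46 and 3.81 in Nontreated. All SRT and all CRT samples lay above all SRT-like samples, while Nontreated spanned both. The difference of SRT from SRT-like was 1.49 ± 0.59 with a limma adjusted p of 0.838, and that of SRT-like from CRT was -1.57 ± 0.59 with a limma adjusted p of 0.470. Il1b was above background in 3 SRT, 3 CRT, 2 SRT-like and 2 Nontreated samples. It thus counted as measured through SRT and CRT, where it was highest. With SRT-like at or near background, neither difference is a measured fold. Il10 was at 5.30, 4.81 and 4.24 in SRT, 5.14, 4.60 and 6.10 in CRT, 3.83, 3.50 and 4.47 in SRT-like, and 4.36, 5.02 and 4.33 in Nontreated. All SRT-like samples lay below all CRT samples. Il12b was at 5.60, 6.21 and 4.74 in SRT, 5.52, 4.15 and 4.36 in CRT, 4.63, 5.05 and 4.12 in SRT-like, and 5.51, 4.95 and 4.81 in Nontreated, and its groups overlapped.

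Genes of other cells were given beside these cytokines, because Il1b, Il10 and Il12b are also products of myeloid and dendritic cells. Of 5 macrophage and monocyte probes on the panel, Cd68 and Tyrobp were above background in 12 samples, Fcgr1 in 8, and Csf1r and Cd14 in 0. Their summed linear level was 172 to 199 in SRT, 199 to 299 in CRT, 116 to 168 in SRT-like and 133 to 219 in Nontreated. Of 4 dendritic cell probes, H2-Aa and Itgax were above background in 12 samples and H2-Ab1 and Siglech in 11. The summed level of that list was 471 to 1027 in SRT, 237 to 1217 in CRT, 310 to 409 in SRT-like and 419 to 825 in Nontreated. Both sums were lower in every SRT-like sample than in every SRT sample, as Il1b was, but the members of the lists did not all share this. Tyrobp, H2-Aa, H2-Ab1 and Siglech were lower in all SRT-like samples than in all SRT samples. Cd68 was instead lower in all SRT samples than in all SRT-like samples, averaging 5.87 ± 0.16 over SRT and 6.04 ± 0.05 over SRT-like (SD, n = 3 each). Itgax averaged 6.13 ± 0.33 over SRT and 6.56 ± 0.38 over SRT-like, with overlap. The B cell gene Ighm was lower in all SRT-like samples too, averaging 7.71 ± 0.22 over SRT and 6.98 ± 0.47 over SRT-like. The part of these cells in the result was not tested.

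**Figure D4:**
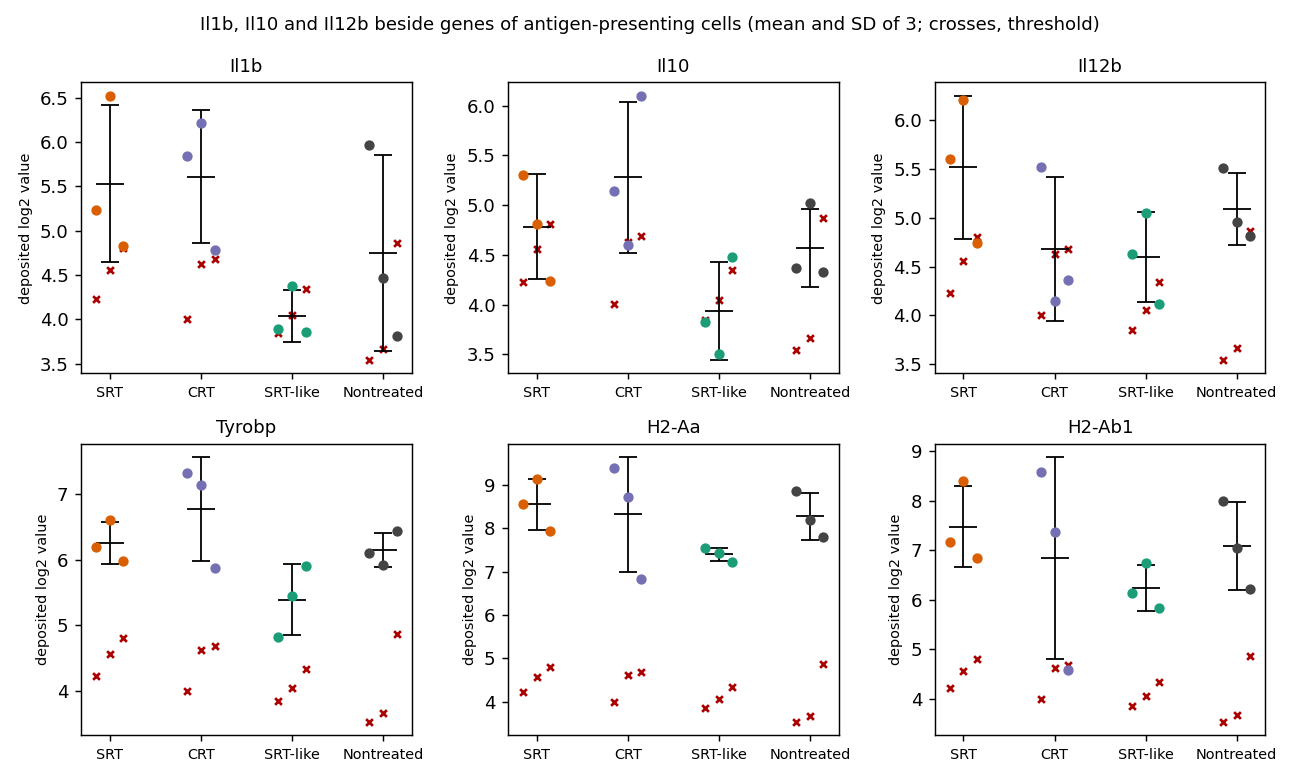
Deposited log2 values (y axis) of Il1b, Il10 and Il12b (top) and of Tyrobp, H2-Aa and H2-Ab1 (bottom), genes of antigen-presenting and myeloid cells, in every sample of SRT, CRT, SRT-like and Nontreated, with the mean and SD of 3 samples and red crosses for each sample's background threshold. Il1b averaged 5.53 over the SRT samples, 5.61 over CRT, 4.04 over SRT-like and 4.75 over Nontreated, and Tyrobp, H2-Aa and H2-Ab1 were lower in all SRT-like samples than in all SRT samples, unlike Cd68 and Itgax, which are not drawn.

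The other 25 members were not measured in any group. Of these, 17 were above background in 0 of 12 samples, namely 12 interleukins (Il1a, Il1f9, Il4, Il6, Il7, Il9, Il11, Il12a, Il17a, Il21, Il24 and Il31), 4 receptor probes (Il11ra1/2, Il13ra1, Il1rapl1 and Il31ra) and the antagonist Il1rn. Il4, the defining type 2 cytokine, and Il17a, that of type 17 T cells, were thus not detectable at this depth. Il21, the ligand of the clearly detected Il21r, was not detectable either. The remaining 8 passed in some samples, Il12b and Il10 in 7 each, Il3 in 5, Il9r in 4, Il5 in 3, Il1rl2 and Il1r1 in 2 each and Il18 in 1. With a threshold at the mean plus 1 SD of the background probes, 21 members were measured, Il3, Il5, Il9r, Il10 and Il12b among them. At the mean plus 3 SD, 14 were measured, without Il15 and Il1b.

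Taken over all members, most differences from Nontreated were small. The median difference was 0.30 for the 41 members and 0.22 for all 773 probes in SRT, 0.40 and 0.26 in CRT, 0.00 and 0.15 in SRT-like, and 0.19 and 0.22 in the 3 modes together. The 26 background probes had medians of 0.64, 0.68, 0.24 and 0.52 in the same order, so probes at background had positive differences too. For receptors alone the medians were 0.31 for SRT, 0.42 for CRT and 0.00 for SRT-like, and for interleukins 0.20, 0.22 and -0.08. At an unadjusted p under 0.05, limma listed 2 members in SRT beside 10.9% of all probes, 10 in CRT beside 15.4%, 6 in SRT-like beside 11.1%, and 8 in the 3 modes together beside 15.3%. As shares of the 41 members these are 4.88%, 24.4%, 14.6% and 19.5%.

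**Figure D5:**
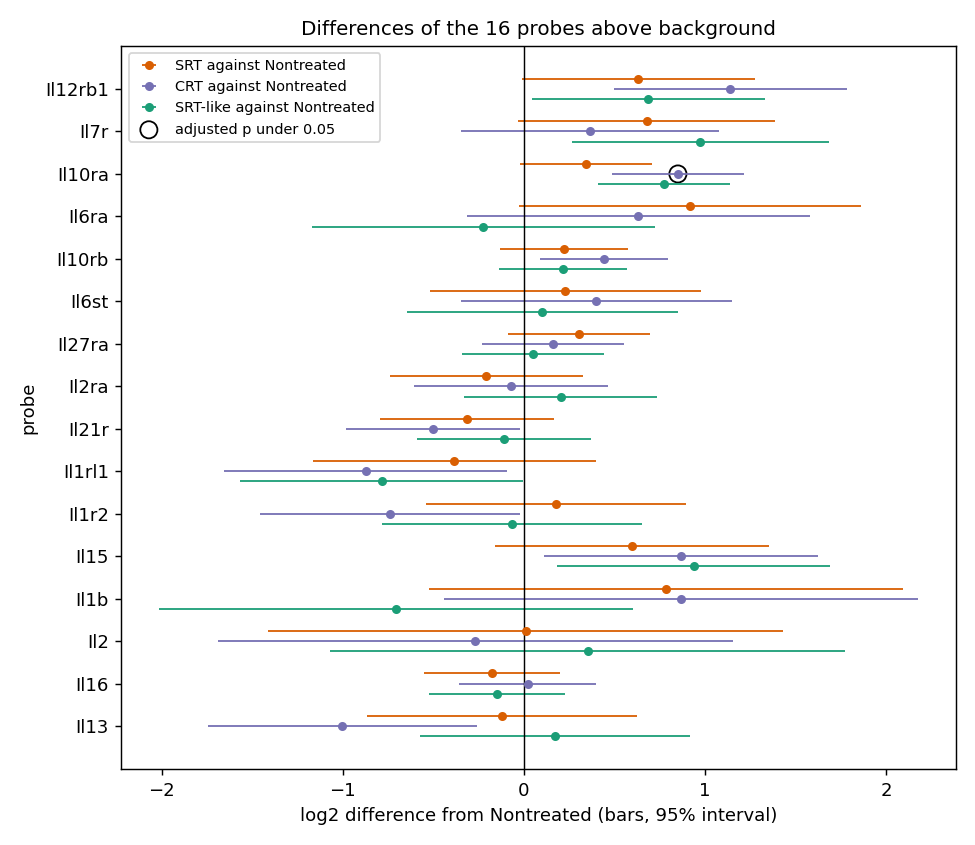
Log2 difference from Nontreated (x axis, with 95% limma intervals) in SRT, CRT and SRT-like for the 16 measured members (y axis); the ring marks an adjusted p under 0.05. Il10ra in CRT, at 0.85, carries the single ring, and most intervals include 0.

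Counted by groups that did not overlap, either way, the members that stood apart from Nontreated numbered 7 for SRT, 9 for CRT and 5 for SRT-like, beside 13.2%, 17.6% and 16.3% of all probes. In SRT 6 members lay wholly above Nontreated (Il10ra, Il10rb, Il12rb1, Il27ra, Il6ra and Il11), beside 10.9% of all probes, and 1 lay wholly below (Il21r), beside 2.33%. In CRT 6 lay above (Il10ra, Il10rb, Il12rb1, Il6ra, Il1r1 and Il24), beside 15.4% of all probes, and 3 below (Il13, Il1rl1 and Il21r), beside 2.2%. In SRT-like 5 lay above (Il10ra, Il10rb, Il12rb1, Il7r and Il11), beside 13.2%, and 0 below, beside 3.1%. Il11 and Il24 were above background in 0 of 12 samples, and Il1r1 in 2. With all 9 irradiated samples set against Nontreated, Il10ra, Il10rb and Il12rb1 remained above (3 of 41, 7.32%), beside 4.66% of all probes, and 0 lay below, beside 0.259%, or 4.92% of all probes either way. Whether the share of members differs from that of all probes was not tested. Il10rb stood only 0.08 above the median difference of all probes in that comparison.

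No member passed the test between 2 modes. The count was 0 of 41 in SRT against CRT, in SRT against SRT-like and in SRT-like against CRT, beside 0.0% of all probes in each. At an unadjusted p under 0.05 limma listed 5 members in each of these 3 comparisons, beside 6.6%, 5.69% and 9.83% of all probes. For Il10ra the difference of SRT from CRT was -0.51 (95% interval -0.87 to -0.14) with a limma adjusted p of 0.564, and that of SRT from SRT-like was -0.43 (-0.79 to -0.07) with 0.838. SRT-like and CRT differed in Il10ra by -0.08 (-0.44 to 0.29), with a limma adjusted p of 0.912, an interval that leaves room for a difference either way. For Il13, SRT-like exceeded CRT by 1.17 ± 0.34 with a limma adjusted p of 0.369, with CRT at background. By groups that did not overlap, 2 members were higher in SRT than in CRT (Il1r2 and Il11, beside 3.62% of all probes) and 2 lower (Il10ra and Il1r1, beside 7.76%). In SRT against SRT-like 6 were higher (Il1b, Il6ra, Il1a, Il9r, Il18 and Il31, beside 7.63%) and 1 lower (Il10ra, beside 2.85%). In SRT-like against CRT 3 were higher (Il13, Il3 and Il11, beside 5.17%) and 6 lower (Il1b, Il6ra, Il10, Il1a, Il5 and Il1r1, beside 13.3%). Either way these are 4, 7 and 9 members, beside 11.4%, 10.5% and 18.5% of all probes. The limma F test over the 4 groups called 0 of 41 members, beside 0.0% of all probes, and 5 at an unadjusted p under 0.05, beside 11.9%. Il10ra had an adjusted p of 0.0867 in that limma test.

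Of the other genes of interleukin signalling on the panel, 10 signal carriers, 4 inhibitors, 2 target genes and 8 related cytokines and chains, 0 of 24 passed the test in a single mode. Calls were rare among all probes too, at 3.1% for CRT, 0.647% for SRT-like and 0.0% for SRT. Of the signal carriers Jak1, Jak2, Jak3, Tyk2, Stat3, Stat4, Stat5a/b, Irak3 and Irak4, all but Irak3 were above background in every sample. Stat3, through which IL-10, IL-6 and IL-21 signal, was at 11.57, 11.78 and 11.62 in SRT, 11.81, 11.92 and 12.09 in CRT, 12.03, 12.06 and 11.69 in SRT-like, and 12.15, 12.28 and 12.20 in Nontreated. It lay below Nontreated in all 9 irradiated samples, with a difference of -0.37 in the 3 modes together and a limma adjusted p of 0.205. The 4 feedback inhibitors Socs1, Socs2, Socs3 and Cish had positive differences in each mode. So did 77.2% of all probes for CRT, 70.6% for SRT and 64.7% for SRT-like. In the 3 modes together the inhibitors differed by 0.38 to 0.68, beside a median of 0.22 for all probes, and 0 of 4 passed. The survival gene Bcl2, which IL-7 and IL-15 are known to sustain, differed by 1.43 there with a limma adjusted p of 0.088, and Mcl1 by -0.01.

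Of 8 related cytokines and chains outside the member list, Osm alone passed in the 3 modes together, beside 3.1% of all probes, and the other 7 did not. The difference of Osm was 0.77, with a limma adjusted p of 0.0491. In that comparison the median difference was 0.22 for all 773 probes and 0.52 for the 26 background probes. Osm encodes oncostatin M, a gp130 cytokine. It was at 5.41, 4.76 and 4.90 in SRT, 4.57, 5.08 and 4.78 in CRT, 4.89, 4.83 and 4.81 in SRT-like, and 4.32, 4.24 and 3.81 in Nontreated. It was above background in 11 of 12 samples, and every irradiated sample exceeded every Nontreated sample. Its receptor chain Osmr was above background in 0 of 12. The call of Osm was not recomputed under other settings.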

How the data were processed

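Per the labels, the authors normalized the nCounter data in ROSALIND and deposited log2 values. Its version, background handling and scaling probes are not given in the sources used. The number 2 raised to a deposited log2 value was a whole multiple of 1 step per sample for 100% of values (tolerance 0.01), which recovered the molecule counts and the depth.

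Of 41 member names, 40 matched a symbol in the RefSeq table of GRCm38.p6, used for names only. Il11ra1/2, a probe for a gene pair, did not. Limma 3.58.1 in R 4.3.3 (lmFit and eBayes without trend) was fitted to all 773 probes and 12 samples with 4 group means, with 7 contrasts and an F test, 2-sided, adjusted by Benjamini-Hochberg over the 773 probes, threshold 0.05. It was also run on simulated data with known changes, and the share of small changes recovered is not reported here. Values per sample are given for members measured in at least 1 group. Tests are given for members past the threshold, for the 5 measured members with the smallest p against Nontreated, and for 3 such members between modes. The values per sample of Il10 and Il12b, measured in no group, were added after they were seen, as were the differences of Il10ra between SRT-like and CRT and the marker genes named. The members, gene lists and background probes were chosen with earlier results of these data known. Alternatives covered scaling, test, prior, filter, floor, samples, weights, a block and single samples left out.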

Additional observations from a re-analysis of the deposited data

How the results depend on the processing

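Of 617 alternative values for 29 named differences, 588 kept their side of the threshold, 15 lost it, 14 gained it and 0 reversed. In CRT against Nontreated the report has 1 called member. The count was 0 with median centring, with counts scaled to the sample total and with only the 2 groups compared, 2 with a trended robust prior, with only probes above background and with sample-number runs as a block (Il10ra and Il12rb1), 3 with voom (Il21r added) and 3 with sample weights (Il24 added). Quantile normalization also gave 1, which was Il13 and not Il10ra. Over all probes these settings called 0 to 62, against 24. Il10ra in CRT had a limma adjusted p of 0.0761 with quantile normalization, 0.0578 with counts scaled to the sample total and 0.125 with only the 2 groups. Leaving out single samples gave 0 to 4 called members in CRT, 4 without Nontreated replicate 3 (Il10ra, Il12rb1, Il1a and Il1rn, the last 2 at background), and 0 to 3 in the 3 modes together, 3 without that sample. In SRT-like the count was 1 (Il10ra) instead of 0 with a trended robust prior, with only probes above background and with sample weights. In the 3 modes together it was 0 instead of 1 with median centring, quantile normalization and scaling to the sample total, 2 with a trended robust prior and 3 with sample weights. The F test called 1 (Il10ra) instead of 0 with voom, with a trended robust prior and with only probes above background. SRT against Nontreated and the 3 comparisons between modes gave 0 called members under every setting. The number of members above background was 9 instead of 16 when all 12 samples had to pass. Where counts of calls moved, the cause was not tested. Comparing only 2 groups does not apply to the 3 modes together, and the block could not be run with SRT-like, which shares no run of sample numbers. No paired analysis was possible because the labels give no replicate numbers shared between groups. Depth limits the members near background most, in Nontreated replicate 3 above all.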
